A study of Homo sapiens with 18 samples.

Results

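HCT116 is a human colorectal carcinoma line with an epithelial character, and its monocultures gave 6 of the 18 libraries of the study. They were chosen by their sample titles: 3 libraries came from cultures that received 10 Gy of ionizing radiation (IR), and 3 came from cultures that received none (NIR). The cells are described as p53-null, carried no fluorescent label and were grown in McCoy's 5A medium. Irradiation was the only labelled difference between both groups. The titles place the harvest on day 2, whereas the series text gives 72 hours after irradiation, and the count tables cannot settle which holds. The 3 libraries of a group are stated to be biological replicates. The other 12 libraries came from MCF10A, a non-transformed mammary epithelial line with an H2B-GFP reporter, and from cultures seeded with equal parts of both lines, each NIR and IR.

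Ionizing radiation breaks DNA, and the kinases that sense the breaks activate the transcription factor p53. Among the genes that p53 induces is CDKN1A, whose product p21 inhibits the cyclin-dependent kinases. Unphosphorylated RB family proteins then keep E2F-dependent replication genes silent, and the DREAM complex represses mitotic genes through the CHR element of their promoters. Epithelial cells that survive a large dose often stop dividing, enlarge, lose lamin B1 and change the proteins they secrete.

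Expression is given as CPM, the counts of a gene times 1e+06 over the total of its library. CPM are shares of the RNA of a library, so fewer cells of a type and less RNA per cell cannot be told apart. The 6 libraries held 25737818 to 40839835 counts, and 21519 to 22816 genes had a count in each. Mitochondrially encoded genes took 8.42 to 8.75% of the counts in NIR and 11.5 to 12.3% in IR libraries. The line label was checked with 13 markers of intestinal epithelium. EPCAM was at 315 CPM, KRT19 at 886 and CDX2 at 10.004 in the NIR mean, whereas CDX1 and CEACAM6 had no count and VIL1, CDH17, LGR5, GPA33 and CEACAM5 stayed under 1 CPM in every library. Of 15 genes taken as markers of MCF10A, TP63 reached at most 0.0979 CPM and TGFBI at most 0.311, against 131 and 3299 CPM in irradiated MCF10A. THY1 and TAGLN did not separate the lines this way, with NIR means of 0.121 and 7.32 CPM in HCT116 and 0.0212 and 5.86 in MCF10A. COL17A1 was at 3.41 and 25.3 CPM in NIR and IR of HCT116, against 635 and 1459 in MCF10A. The summed level of these 15 markers was 460.1 to 629 CPM in NIR and 735 to 806 CPM in IR libraries, mostly from CAV1, CAV2 and NT5E.

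Irradiation changed 52.5% of the 16857 genes tested at an adjusted p under 0.05. Of these, 4269 genes (25.3%) rose and 4577 (27.2%) fell. At least 2-fold, 1009 rose (5.99%) and 1164 fell (6.91%). The IR and NIR libraries did not overlap for 4762 genes with a higher (28.2%) and 5150 with a lower level in IR (30.6%). These shares are the background for every count of called genes and every statement of groups without overlap below. The median log2 fold change over all genes was 0.0072. Here and below, rose and fell are used for genes past this threshold in edgeR's quasi-likelihood test, and log2 fold changes are given ± SE over 3 against 3 libraries. Levels written with ± are means with the SD over the 3 libraries of a group.

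Where a response is set against that of MCF10A, the difference itself was tested over the 12 monoculture libraries. It passed the threshold for 37.3% of 18179 genes, 15.4% with a more positive and 21.9% with a more negative response in HCT116. In MCF10A alone 55.4% of 15154 genes passed the threshold, 26.2% rising and 29.2% falling. The more positive calls were 41.3% of all calls of the difference, a split that moved with the scaling and with single libraries. It was 52.5% when mitochondrially encoded and the 10 most abundant genes were left out, 51.9% with no filter, 53.2% without HCT116 IR replicate 2, and 52.8, 53.3 and 53.9% without MCF10A IR replicates 1, 2 and 3. The median difference over all genes was -0.10 and ranged from -0.12 to 0.0081 over the alternatives. Both lines were grown in different media, and the part of the medium in a difference cannot be told apart from that of the line.

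The genes with the largest rises were led by epidermal and secreted products. KRTAP3-1, which codes for a keratin-associated protein of hair, was at 0.347, 0.435 and 0.145 CPM in the NIR libraries and at 46.9, 35.5 and 36.9 CPM in the IR libraries (log2 fold change 6.96 ± 0.200, adjusted p = 1.0e-17). The kallikrein-related peptidase gene KLK5 was at 2.81, 3.98 and 3.87 CPM in the NIR libraries and at 101, 76.7 and 80.8 CPM in the IR libraries (log2 fold change 4.62 ± 0.127, adjusted p = 5.3e-18). CPA4, a secreted carboxypeptidase, was at 17.6, 28.1 and 31.4 CPM in the NIR libraries and at 619.6, 494 and 498 CPM in the IR libraries (log2 fold change 4.40 ± 0.138, adjusted p = 3.2e-17). All 3 genes were scarce to moderate without irradiation, and every IR library stood above every NIR library, as the rule for naming them asked. The widest rise in absolute level within the 12 belonged to GALNT5, an enzyme that starts mucin-type O-glycosylation, at 50.5, 54.7 and 52.7 CPM in the NIR libraries and at 640.03, 649 and 648 CPM in the IR libraries (log2 fold change 3.63 ± 0.0620, adjusted p = 8.0e-22). SUSD2, which codes for a membrane protein, rose from 10.6 ± 1.52 to 155 ± 10.7 CPM (log2 fold change 3.88 ± 0.0917, adjusted p = 5.3e-19), and the lipid transporter gene ABCA12 rose from 4.43 ± 0.174 to 44.9 ± 4.46 CPM (log2 fold change 3.34 ± 0.111, adjusted p = 8.8e-17). The long noncoding RNA PINCR rose from 0.909 ± 0.359 to 13.5 ± 1.27 CPM (log2 fold change 3.90 ± 0.216, adjusted p = 5.8e-13). RASGRP3, an exchange factor for RAS proteins, GRIN2C, a glutamate receptor subunit, and the mucin gene MUC19 went from 1.48, 7.27 and 2.59 CPM to 16.0, 67.1 and 24.1 CPM. KLK6 and KRTAP2-3, the remaining 2 of the 12, are described with their families.

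The genes with the largest falls came from several processes. ANKRD37, a gene induced by low oxygen, was at 17.8, 16.8 and 20.8 CPM in the NIR libraries and at 3.11, 1.54 and 2.60 CPM in the IR libraries (log2 fold change -2.95 ± 0.184, adjusted p = 4.8e-12). INSIG1, the sterol-sensing protein that holds SREBP precursors in the endoplasmic reticulum, was at 73.9, 80.2 and 72.8 CPM in the NIR libraries and at 10.4, 10.3 and 13.6 CPM in the IR libraries (log2 fold change -2.73 ± 0.0965, adjusted p = 2.8e-16). PEG10, an imprinted gene derived from a retrotransposon, fell from 82.8 ± 2.44 to 14.1 ± 0.783 CPM (log2 fold change -2.54 ± 0.0799, adjusted p = 3.4e-17). The chromatin protein gene HMGB2 was the most abundant of the 12 and was at 436, 477 and 431 CPM in the NIR libraries and at 89.6, 101 and 94.7 CPM in the IR libraries (log2 fold change -2.23 ± 0.0644, adjusted p = 1.0e-17). CDKN1C, the CDK inhibitor p57, fell from 14.0 ± 0.354 to 2.39 ± 0.391 CPM (log2 fold change -2.52 ± 0.159, adjusted p = 5.5e-12). The transcription factor genes KLF2, MYB and DMBX1 fell by 2.53, 2.45 and 2.32 on the log2 scale. SESTD1, a phospholipid-binding protein, fell from 72.5 ± 13.2 to 12.4 ± 1.59 CPM (log2 fold change -2.53 ± 0.114, adjusted p = 1.7e-14). H1-10, a linker histone encoded outside the histone clusters, fell from 41.5 ± 1.16 to 8.55 ± 1.31 CPM (log2 fold change -2.28 ± 0.108, adjusted p = 4.3e-14). RGS9, a regulator of G protein signalling, and PPFIA4, a liprin, were at 2.28 and 8.69 CPM in IR against 11.4 and 40.8 CPM in NIR.

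**Figure D1:**
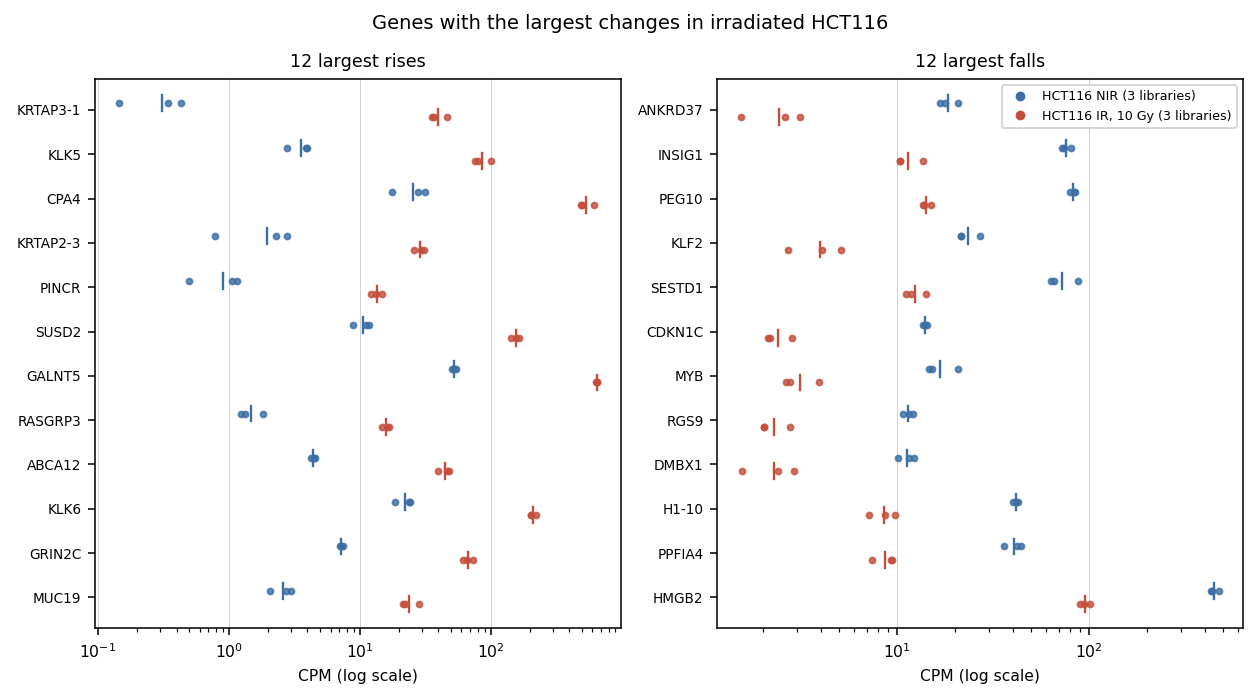
CPM of the 12 genes with the largest rises (left) and the 12 with the largest falls (right), one row per gene on a log axis. Points are single HCT116 libraries, blue for NIR and red for IR, and short vertical bars are group means. The NIR and IR points of a gene do not overlap in any row, and KRTAP3-1 moves farthest, from 0.309 to 39.7 CPM.

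**Figure D2:**
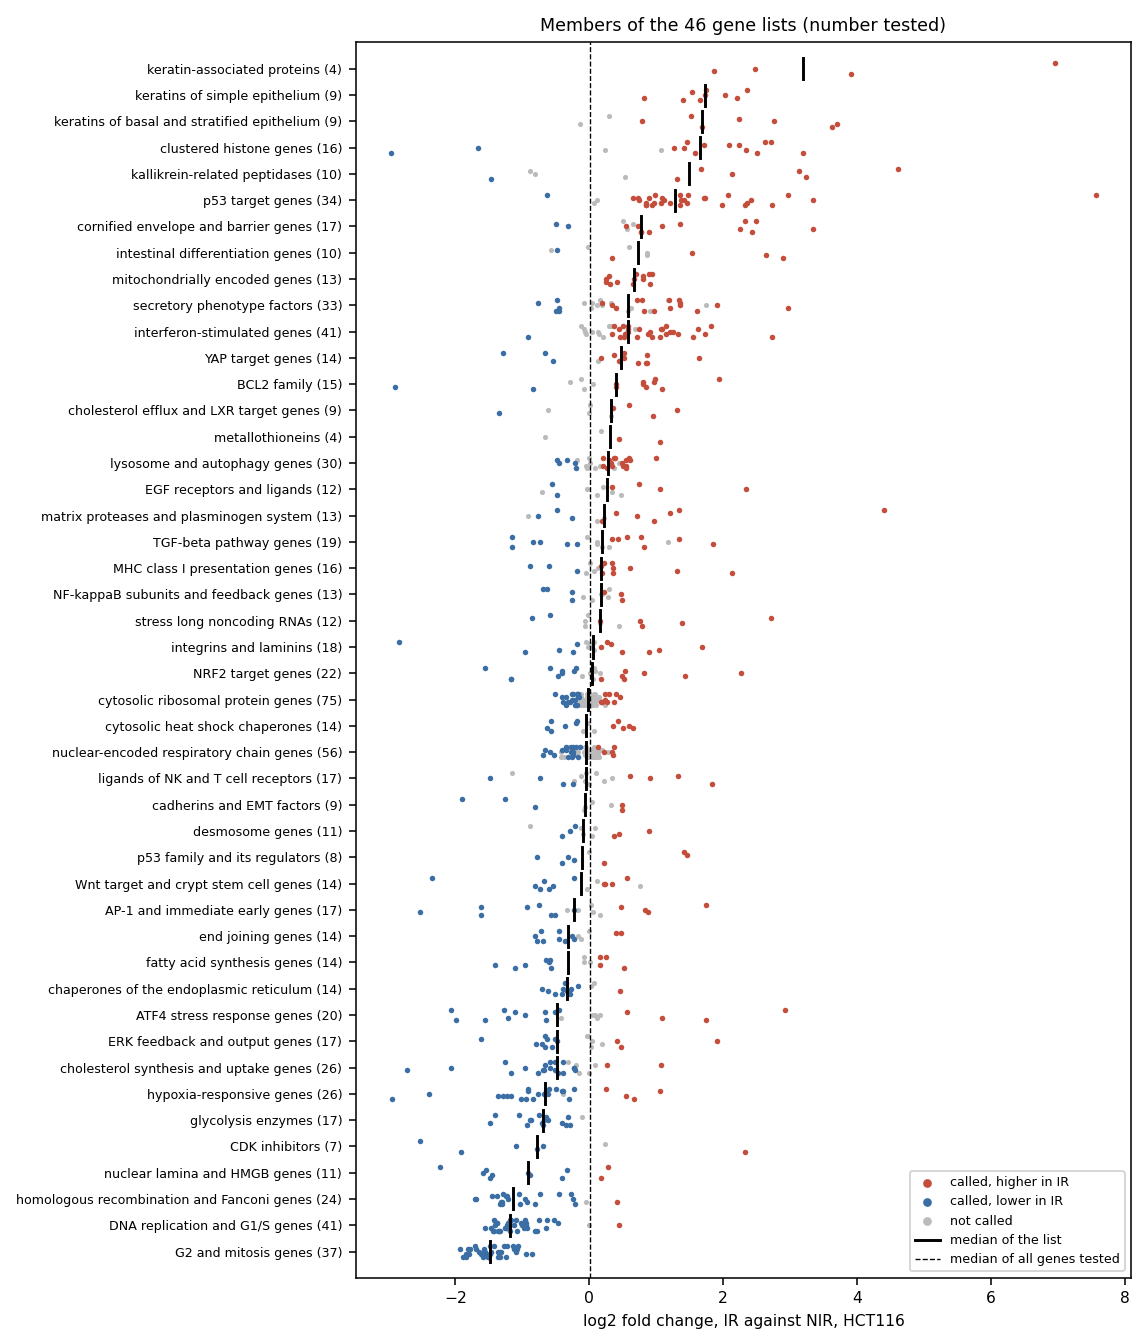
Log2 fold change of IR against NIR for the tested members of 46 gene lists, one row per list, ordered by the median (black bar), with the number tested in brackets. Red and blue points are members that rose or fell, grey points did not pass the threshold, and the dashed line is the median of all genes. Replication, mitosis and recombination genes lie lowest, with medians of -1.18, -1.49 and -1.13, and keratins and keratin-associated proteins lie highest. EDA2R, the point farthest right, had no count in NIR, so its fitted value is no bound.

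Genes that p53 is known to induce rose in the irradiated cells, although the line is described as p53-null. Of the 34 target genes tested, 31 rose and 1 fell, with a median log2 fold change of 1.29, and 21 rose at least 2-fold. CDKN1A was at 275, 326 and 352 CPM in the NIR libraries and at 1688, 1585 and 1508 CPM in the IR libraries (log2 fold change 2.33 ± 0.0751, adjusted p = 5.0e-17). TP53I3, a quinone oxidoreductase, was at 10.1, 11.4 and 12.3 CPM in the NIR libraries and at 89.9, 81.6 and 90.8 CPM in the IR libraries (log2 fold change 2.97 ± 0.0879, adjusted p = 1.5e-17). ZMAT3, an RNA-binding protein, was at 77.6, 71.7 and 65.2 CPM in the NIR libraries and at 272, 291 and 282 CPM in the IR libraries (log2 fold change 1.98 ± 0.0660, adjusted p = 8.8e-17). FDXR, a mitochondrial reductase, was at 82.5, 84.9 and 87.9 CPM in the NIR libraries and at 239, 230.4 and 234 CPM in the IR libraries (log2 fold change 1.47 ± 0.0595, adjusted p = 2.8e-15). In these genes the lowest IR library stood above the highest NIR library by a wide margin. Groups without overlap in this direction made up 28.2% of all genes tested. SESN1, which restrains mTORC1, was at 19.96, 19.7 and 20.1 CPM in the NIR libraries and at 52.2, 42.7 and 42.6 CPM in the IR libraries (log2 fold change 1.21 ± 0.0928, adjusted p = 1.6e-10). Rises were also seen for the death receptor genes FAS, TNFRSF10A and TNFRSF10B, with log2 fold changes of 1.71, 0.75 and 0.86. The antiproliferative gene BTG2 and the kinase gene PLK2 rose from 35.3 ± 1.02 to 148 ± 7.26 CPM (log2 fold change 2.07 ± 0.0671, adjusted p = 5.2e-17) and from 28.2 ± 2.07 to 149 ± 10.5 CPM (log2 fold change 2.42 ± 0.0749, adjusted p = 2.9e-17). EDA2R, a receptor of the TNF family, had no count in any NIR library and was at 0.396, 1.08 and 0.699 CPM in IR, at least 22.8-fold higher against a floor of 3 counts over the group, or at least 11.4-fold with all counts halved.

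The exceptions were few. KITLG, the ligand of the receptor KIT, fell from 1546 ± 82.0 to 991 ± 79.4 CPM (log2 fold change -0.64 ± 0.0597, adjusted p = 4.8e-09). The repair gene DDB2 and GADD45A were at 78.3 and 84.7 CPM and at 79.3 and 82.9 CPM in NIR and IR and did not pass the threshold (adjusted p = 0.13 and 0.37). SPATA18 had too few counts to be tested. The list was chosen with earlier results of these libraries known and is not independent evidence of its direction. The negative regulators MDM2, the ubiquitin ligase of p53, and PPM1D, a phosphatase that ends damage signalling, rose from 267 ± 7.45 to 707 ± 47.0 CPM (log2 fold change 1.41 ± 0.0592, adjusted p = 5.2e-15) and from 61.3 ± 2.92 to 167 ± 2.94 CPM (log2 fold change 1.46 ± 0.0624, adjusted p = 7.4e-15).

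The p53 relatives TP63 and TP73 differed in level: TP63 had counts in 1 of the 6 libraries, and TP73 was at 18.7, 18.7 and 20.2 CPM in NIR and 15.7, 14.2 and 16.2 in IR (log2 fold change -0.32 ± 0.104, adjusted p = 0.014), a call that was lost without IR replicate 2 or NIR replicate 3 (adjusted p from 0.053 to 0.067). Of the 8 tested members of the p53 family and its regulators, 4 fell. Those that fell, besides TP73, were MDM4, the inhibitory partner of MDM2 (log2 fold change -0.22 ± 0.0601, adjusted p = 0.0032), the deubiquitinase gene USP7 (log2 fold change -0.40 ± 0.0598, adjusted p = 5.4e-06) and CDKN2A (log2 fold change -0.78 ± 0.119, adjusted p = 6.9e-06). CDKN2A codes for p16 and, from another reading frame, for ARF, the inhibitor of MDM2. It was at 17.4, 16.3 and 17.5 CPM in NIR and 9.78, 8.79 and 11.2 in IR, and MCF10A had no count of it.

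RefSeq promoters (build GRCh38.p14, 250 bases before to 50 after the start) were matched to 27 of the 35 p53 targets. A p53 half-site on either strand was found in 7 of them (25.9%), against 7.73% of the 12450 tested genes with a promoter in the table. Many known p53 sites lie outside such windows, in introns or farther upstream.

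**Figure D3:**
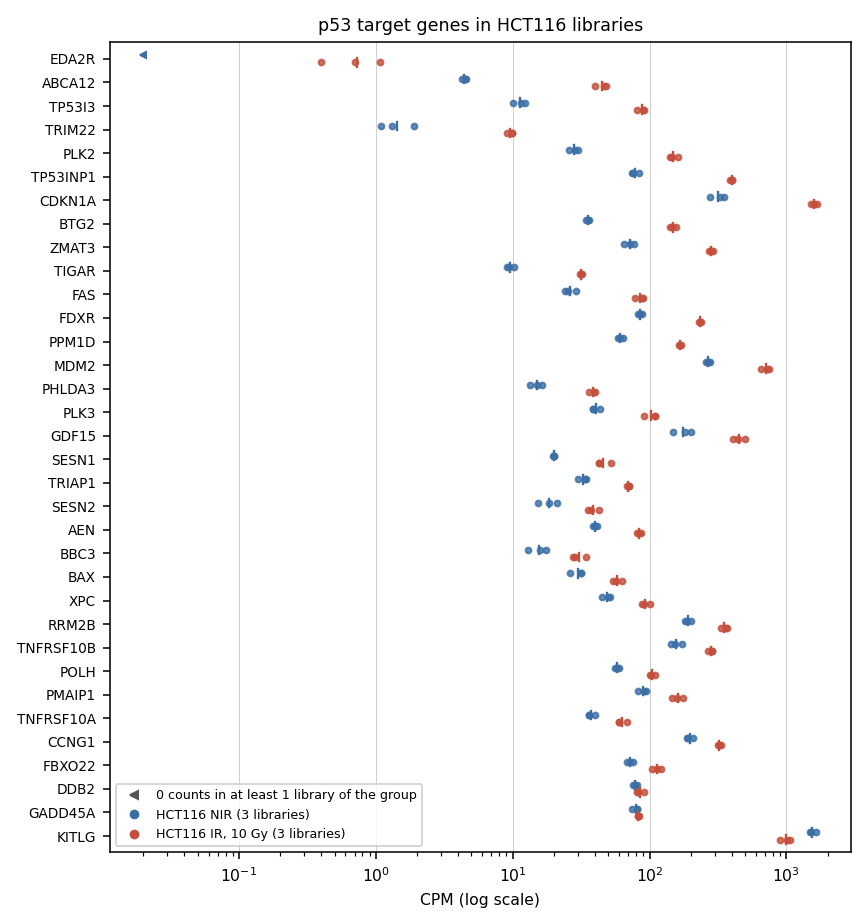
CPM of the 34 tested p53 targets in the 6 HCT116 libraries on a log axis, ordered by log2 fold change from top to bottom. Blue points are NIR and red points IR libraries, short bars are group means, and a triangle at the left edge marks a group with a library at 0 counts. The red bars lie to the right in all rows but that of KITLG at the bottom, and the groups are close for DDB2 and GADD45A.

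CDKN1A was the only CDK inhibitor gene that rose. Of the 7 tested, 5 fell, and CDKN2B, which codes for p15, was at 12.7, 14.1 and 11.6 CPM in NIR and 16.5, 12.2 and 16.2 in IR (log2 fold change 0.23 ± 0.128, adjusted p = 0.14), a gene called as higher without IR replicate 2 (adjusted p = 0.024). CDKN1B, which codes for p27, was at 56.5, 60.8 and 51.7 CPM in the NIR libraries and at 25.2, 25.5 and 28.3 CPM in the IR libraries (log2 fold change -1.09 ± 0.0826, adjusted p = 1.3e-10). CDKN2C, which codes for p18, was at 13.3, 13.4 and 13.0 CPM in the NIR libraries and at 3.20, 4.14 and 3.03 CPM in the IR libraries (log2 fold change -1.92 ± 0.154, adjusted p = 3.5e-10). Their IR libraries lay under all NIR libraries, as for 30.6% of all genes tested, and the reverse of CDKN1A. The partner of the kinases that these proteins inhibit, cyclin D1 (CCND1), was at 492, 491 and 509.6 CPM in the NIR libraries and at 1905, 1865 and 1812 CPM in the IR libraries (log2 fold change 1.91 ± 0.0536, adjusted p = 6.8e-18).

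The cell cycle genes fell nearly without exception, and the promoters of 4 of them are shown because mitotic and replication genes differ in their promoter letters. The capitals mark the CHR element TTTGAA in the mitotic genes MKI67 and ESPL1 and the E2F core TTCCCGC, or its reverse complement, in the replication genes RFC4 and MCM7. Each sequence holds the 250 bases before the RefSeq start, 5′ to 3′ on the strand of the gene: MKI67 from chr10:128126424-128126673, minus strand, ESPL1 from chr12:53268049-53268298, plus strand, RFC4 from chr3:186806483-186806732, minus strand, and MCM7 from chr7:100101398-100101647, minus strand, in GRCh38.p14.
MKI67: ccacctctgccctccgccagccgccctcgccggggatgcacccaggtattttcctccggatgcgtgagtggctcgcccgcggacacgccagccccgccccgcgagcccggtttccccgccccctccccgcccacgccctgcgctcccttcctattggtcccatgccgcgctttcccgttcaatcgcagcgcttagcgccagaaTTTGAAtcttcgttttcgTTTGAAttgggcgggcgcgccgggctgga
ESPL1: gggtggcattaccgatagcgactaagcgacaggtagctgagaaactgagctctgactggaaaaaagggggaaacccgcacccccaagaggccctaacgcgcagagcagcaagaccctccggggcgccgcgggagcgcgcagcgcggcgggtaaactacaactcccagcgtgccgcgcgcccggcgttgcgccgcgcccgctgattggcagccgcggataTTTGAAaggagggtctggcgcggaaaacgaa
RFC4: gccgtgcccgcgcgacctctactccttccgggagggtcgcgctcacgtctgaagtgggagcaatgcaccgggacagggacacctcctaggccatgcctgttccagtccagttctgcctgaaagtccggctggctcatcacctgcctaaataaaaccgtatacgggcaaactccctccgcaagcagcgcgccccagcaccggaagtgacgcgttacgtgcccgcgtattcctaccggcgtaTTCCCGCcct
MCM7: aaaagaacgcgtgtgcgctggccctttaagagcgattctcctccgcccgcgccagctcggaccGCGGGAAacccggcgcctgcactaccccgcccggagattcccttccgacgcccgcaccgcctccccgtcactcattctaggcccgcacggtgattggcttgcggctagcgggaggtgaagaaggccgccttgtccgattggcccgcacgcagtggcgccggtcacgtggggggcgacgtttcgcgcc

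The CHR element was found in 21 of 30 matched promoters of G2 and mitosis genes (70.0%) and in 1 of 35 of replication and G1/S genes, against 14.1% of the promoters of all tested genes. The E2F core was in 15 of the 35 replication promoters (42.9%), in 3 of the mitotic ones and in 12 of 20 promoters of recombination and Fanconi genes (60.0%), against 11.9%. The longer E2F site GCGGGAAA, which contains the core on the other strand, was in 10 replication promoters (28.6% against 3.12%). A CCAAT box was in 24 mitotic promoters (80.0% against 42.5%). Both strands of the whole window of 300 bases were searched, and a match is a description of the letters only.

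All 37 G2 and mitosis genes fell, 35 of them at least 2-fold, with a median log2 fold change of -1.49. MKI67, the gene of the Ki-67 proliferation antigen shown above, was at 1164, 1028 and 1069.7 CPM in the NIR libraries and at 294, 305 and 308 CPM in the IR libraries (log2 fold change -1.84 ± 0.0581, adjusted p = 3.5e-17). KIF20A, a kinesin of cytokinesis, was at 137, 135 and 129.8 CPM in the NIR libraries and at 32.6, 37.4 and 34.4 CPM in the IR libraries (log2 fold change -1.94 ± 0.0691, adjusted p = 3.2e-16). CDC20, the activator of the anaphase-promoting complex, was at 222, 225 and 204 CPM in the NIR libraries and at 63.2, 71.2 and 66.6 CPM in the IR libraries (log2 fold change -1.69 ± 0.0647, adjusted p = 1.2e-15). In each of them the IR libraries lay close together, far under the NIR range. Groups without overlap in this direction made up 30.6% of all genes tested. ESPL1, the protease separase, fell from 109 ± 6.22 to 31.3 ± 1.66 CPM (log2 fold change -1.79 ± 0.0724, adjusted p = 2.8e-15). The kinetochore gene NUF2 and the kinase genes AURKB, PLK1 and AURKA fell by 1.88, 1.84, 1.47 and 1.06 on the log2 scale. Cyclin B1 (CCNB1) fell less than most, from 236 ± 16.9 to 109.8 ± 1.53 CPM (log2 fold change -1.09 ± 0.0613, adjusted p = 7.2e-13).

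Of the 41 replication and G1/S genes, 39 fell, 27 of them at least 2-fold, with a median of -1.18. RFC4, a subunit of the clamp loader, was at 80.9, 78.7 and 73.3 CPM in the NIR libraries and at 27.7, 25.5 and 25.4 CPM in the IR libraries (log2 fold change -1.56 ± 0.0747, adjusted p = 5.1e-14). MCM7, a subunit of the replicative helicase, was at 456, 490.3 and 489 CPM in the NIR libraries and at 168, 179.7 and 178 CPM in the IR libraries (log2 fold change -1.44 ± 0.0585, adjusted p = 2.9e-15), and MCM2 of the same complex fell from 146 ± 7.86 to 69.1 ± 1.78 CPM (log2 fold change -1.07 ± 0.0637, adjusted p = 1.9e-12). E2F1, the transcription factor that drives many of these genes, was at 41.5, 38.0 and 42.5 CPM in the NIR libraries and at 14.6, 13.8 and 15.5 CPM in the IR libraries (log2 fold change -1.47 ± 0.0923, adjusted p = 5.1e-12). The ribonucleotide reductase gene RRM2 and the primase gene PRIM1 fell by 1.42 and 1.43 on the log2 scale, and cyclin E2 (CCNE2) by 0.62. The sliding clamp gene PCNA stood apart with 274, 284 and 264 CPM in NIR and 279.8, 264 and 274 in IR, overlapping ranges that did not pass the threshold (adjusted p = 0.9975). Cyclin E1 (CCNE1) was the only member that rose (log2 fold change 0.44 ± 0.0816, adjusted p = 7.7e-05).

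Lamina and HMGB genes were mostly lower. Of the 11 tested, 2 rose and 9 fell, with a median log2 fold change of -0.92. Lamin B1 (LMNB1) was at 187, 175 and 191 CPM in the NIR libraries and at 60.6, 65.9 and 70.8 CPM in the IR libraries (log2 fold change -1.48 ± 0.0668, adjusted p = 1.8e-14), and the lamina-associated protein gene TMPO and the abundant chromatin gene HMGB1 fell from 318 ± 10.7 to 109 ± 9.50 CPM (log2 fold change -1.54 ± 0.0648, adjusted p = 5.5e-15) and from 1099 ± 19.7 to 364 ± 34.2 CPM (log2 fold change -1.59 ± 0.0630, adjusted p = 2.2e-15). Lamin A/C (LMNA) moved the other way, and the number of genes that rose became 1 without IR replicate 1, IR replicate 2 or NIR replicate 1. LMNA was at 404, 483 and 511 CPM in NIR and 603, 527 and 569 in IR (log2 fold change 0.29 ± 0.0727, adjusted p = 0.0019).

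Repair by homologous recombination, which uses the sister chromatid after replication, lost transcripts broadly: 22 of 24 recombination and Fanconi genes fell, with a median of -1.13. FANCA, of the Fanconi core complex, was at 154, 142 and 129 CPM in the NIR libraries and at 48.3, 38.8 and 41.9 CPM in the IR libraries (log2 fold change -1.71 ± 0.0786, adjusted p = 2.4e-14). FANCG, FANCD2, BARD1, RAD54L and the exonuclease gene EXO1 fell by 1.69, 1.25, 1.46, 1.38 and 1.32 on the log2 scale. PALB2 rose (log2 fold change 0.41 ± 0.105, adjusted p = 0.002), and RAD50 was at 10.4 and 10.02 CPM in NIR and IR and did not pass the threshold. End joining, which needs no template, changed less, with 2 of 14 genes higher, 9 lower and a median of -0.31. Its ligase gene LIG4 rose from 32.3 ± 2.22 to 44.8 ± 3.47 CPM (log2 fold change 0.48 ± 0.0848, adjusted p = 4.8e-05). The Ku subunit genes XRCC6 and XRCC5 fell from 949 ± 7.18 to 571 ± 4.32 CPM (log2 fold change -0.73 ± 0.0516, adjusted p = 4.3e-11) and by 0.26 on the log2 scale. POLQ, the polymerase of microhomology-mediated joining, PAXX and XRCC4 fell by 0.81, 0.78 and 0.69.

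The BCL2 family decides whether mitochondria release cytochrome c. Of the 15 members tested, 9 rose and 2 fell, with a median log2 fold change of 0.40. The BH3-only gene BIK was at 7.55, 7.92 and 7.67 CPM in the NIR libraries and at 30.2, 30.5 and 27.3 CPM in the IR libraries (log2 fold change 1.94 ± 0.106, adjusted p = 5.2e-13). BMF, another BH3-only gene, went the other way, at 3.65, 4.66 and 5.72 CPM in the NIR libraries and at 0.427, 0.490 and 1.01 CPM in the IR libraries (log2 fold change -2.90 ± 0.321, adjusted p = 6.6e-08). The pore formers BAX and BAK1 and the p53-induced BBC3 (PUMA) rose from 29.8 ± 3.12 to 57.9 ± 4.91 CPM (log2 fold change 0.97 ± 0.0888, adjusted p = 3.4e-09), by 1.08 and by 0.98 on the log2 scale. Of the protective members, BCL2L1 rose (log2 fold change 0.40 ± 0.0631, adjusted p = 1.0e-05), while MCL1 was at 271, 287 and 278 CPM in NIR and 252, 265 and 248 in IR (log2 fold change -0.12 ± 0.0569, adjusted p = 0.087) and was called as lower without NIR replicate 1 (adjusted p = 0.044). The response of both BIK and BMF differed from that in MCF10A, where BIK went from 5.11 ± 0.743 to 3.52 ± 0.297 CPM and BMF from 1.01 ± 0.344 to 1.93 ± 0.687 CPM (log2 difference 2.42 ± 0.190, adjusted p = 2.4e-10 for BIK and -3.88 ± 0.519, adjusted p = 1.5e-06 for BMF).

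Epithelial cytoskeleton and secreted protease genes rose in several families. All 9 tested keratins of the simple-epithelium list, which also holds KRT80, KRT81 and KRT86, rose, with a median log2 fold change of 1.72. The filament partners KRT8 and KRT18 rose alike: KRT8 was at 1417, 1456 and 1472 CPM in the NIR libraries and at 4959, 4428 and 4887 CPM in the IR libraries (log2 fold change 1.72 ± 0.0528, adjusted p = 2.6e-17), and KRT18 was at 396, 393 and 389.9 CPM in the NIR libraries and at 1397, 1209 and 1314 CPM in the IR libraries (log2 fold change 1.74 ± 0.0580, adjusted p = 8.8e-17). KRT19 was at 720.4, 996 and 943 CPM in the NIR libraries and at 1663, 1424 and 1561 CPM in the IR libraries (log2 fold change 0.81 ± 0.0837, adjusted p = 2.1e-08). KRT20, a keratin of differentiated intestinal cells, was low in both groups and rose from 1.13 ± 0.328 to 3.29 ± 0.584 CPM (log2 fold change 1.54 ± 0.294, adjusted p = 1.2e-04). KRT80, KRT81 and KRT86, better known from stratified epithelium and hair, rose from 11.7 ± 6.40 to 48.3 ± 6.02 CPM (log2 fold change 2.04 ± 0.198, adjusted p = 8.6e-09), by 2.36 and by 2.20 on the log2 scale. NIR replicate 1 held 19.1 CPM of KRT80, above the other NIR libraries and under all IR libraries.

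Keratins of basal and stratified epithelium also rose in 7 of 9 tested genes (median 1.68), but from traces, and in 4 under a stricter filter on low counts. Members near 0 in NIR entered the test through their IR libraries and could only be called as higher. KRT5 was at 0.289, 0.0622 and 0 CPM in the NIR libraries and at 1.25, 2.60 and 0.777 CPM in the IR libraries (log2 fold change 3.63 ± 0.686, adjusted p = 1.0e-04). KRT17 was at 0.0289, 0.280 and 0.0724 CPM in NIR and 1.16, 1.79 and 2.14 in IR, KRT6A at 0.0579, 0.435 and 0.145 and 1.52, 1.37 and 1.48, and KRT14 at 0.347, 0.155 and 0.362 and 0.944, 1.00 and 0.816. The call for KRT14 was lost without NIR replicate 2 (adjusted p = 0.064). These genes are high in MCF10A, and the irradiated HCT116 means of KRT5, KRT6A, KRT14 and KRT17 were 0.0553, 0.0639, 0.193 and 0.185% of those in irradiated MCF10A. TGFBI, another abundant MCF10A transcript, was at 0.00709% of its MCF10A level. The part of RNA from MCF10A in these traces was not tested. KRT13, at or near 0 in MCF10A, rose from 0.575 ± 0.178 to 2.69 ± 0.498 CPM (log2 fold change 2.24 ± 0.355, adjusted p = 1.2e-05). The keratins KRT6A, KRT6B and KRT6C are near-identical copies, between which reads may be split.

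Of 14 keratin-associated protein genes, 4 had enough counts to be tested, and all of these rose (2 were left under a stricter filter), to 0.954 CPM for KRTAP2-4, 0.947 for KRTAP5-1 and 28.8 for KRTAP2-3. The filter keeps a gene counted in either group, so members near 0 in NIR could only be called as higher. For such members the filter fixed the direction of the call. KRTAP2-3 was at 0.781, 2.30 and 2.79 CPM in the NIR libraries and at 30.9, 26.2 and 29.3 CPM in the IR libraries (log2 fold change 3.92 ± 0.217, adjusted p = 5.8e-13), and its near-identical neighbours make the split of reads within its subfamily uncertain. Kallikrein-related peptidases are serine proteases, some of which act in shedding the outer layer of skin. Of the 10 kallikreins tested, 6 rose and 1 fell, with a median log2 fold change of 1.48. KLK6 was at 18.7, 23.8 and 24.4 CPM in the NIR libraries and at 222, 202 and 203 CPM in the IR libraries (log2 fold change 3.24 ± 0.0858, adjusted p = 2.6e-18), and KLK7 was at 21.1, 29.0 and 30.05 CPM in the NIR libraries and at 252, 214 and 233 CPM in the IR libraries (log2 fold change 3.13 ± 0.0982, adjusted p = 3.2e-17). KLK10 rose from 7.89 ± 1.87 to 34.1 ± 6.18 CPM (log2 fold change 2.13 ± 0.146, adjusted p = 2.5e-11). KLK5, KLK6 and KLK7 had the largest fold changes of the family, and their groups did not overlap, as for 28.2% of all genes in this direction. KLK1 was the member that fell (log2 fold change -1.47 ± 0.335, adjusted p = 7.4e-04). None of the 13 matched kallikrein promoters held the AP-1 site TGANTCA, against 7.41% of all tested genes.

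Barrier genes of the epidermis were mixed. Of the 17 cornified envelope and barrier genes tested, 12 rose and 2 fell, with a median log2 fold change of 0.77. The list also holds CDKN1A and ABCA12, which are counted among the p53 targets too, and 19 of its 36 members were not tested. SERPINB5 (maspin), a serpin of epithelial cells, was at 49.3, 52.6 and 50.9 CPM in the NIR libraries and at 303, 280.3 and 269 CPM in the IR libraries (log2 fold change 2.49 ± 0.0656, adjusted p = 2.6e-18), and LCN2, an iron-siderophore binding protein, was at 6.36, 4.97 and 5.10 CPM in the NIR libraries and at 31.9, 28.8 and 28.1 CPM in the IR libraries (log2 fold change 2.44 ± 0.120, adjusted p = 7.9e-14). Of the structural genes, SPRR1A had no count in any library, and IVL, the gene of involucrin, stayed at 0.0609, 0.147 and 0 CPM in IR, too low to be tested. SERPINB2 was at 0.640, 0.147 and 0.816 CPM in IR, also untested, and SLPI at 1.01, 1.22 and 1.55 (log2 fold change 0.66 ± 0.468, adjusted p = 0.25), called as higher without NIR replicate 1 (adjusted p = 0.031). The AP-1 site was present in 12 of 26 matched promoters of this list (46.1%), against 7.41% of those of all tested genes.

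**Figure D4:**
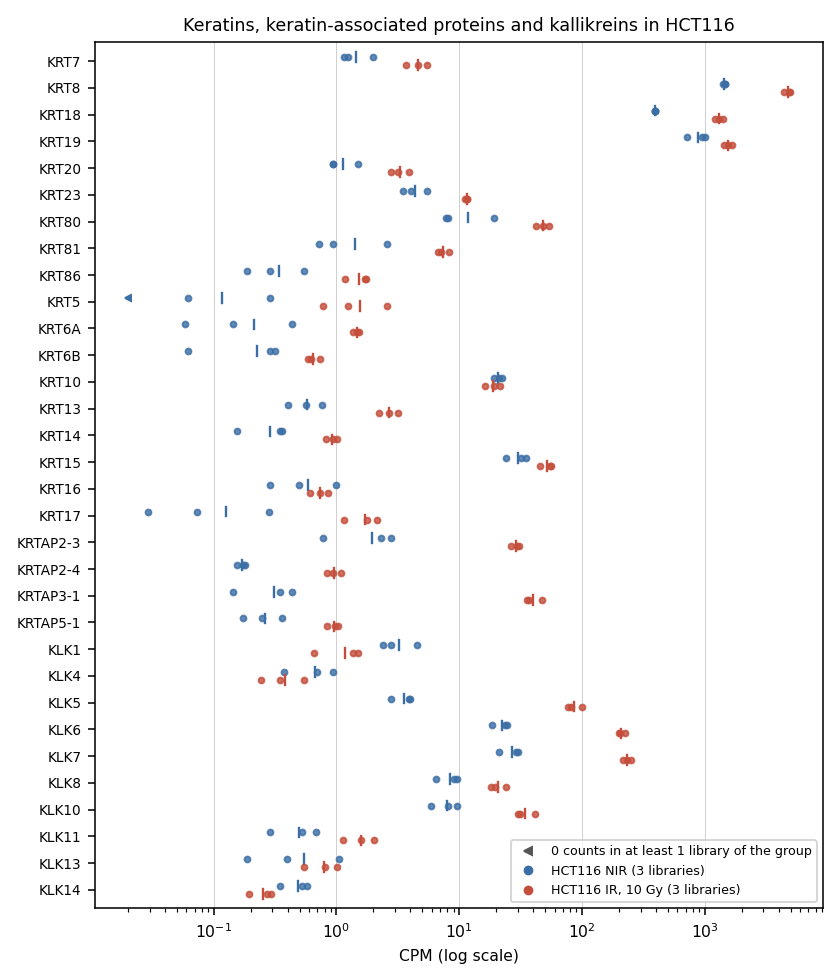
CPM of the tested keratins, keratin-associated proteins and kallikreins in the 6 HCT116 libraries on a log axis. Blue points are NIR and red points IR libraries, short bars are group means, and a triangle marks a group with a library at 0 counts. KRT8, KRT18 and KRT19 stand at the right end in both groups, KLK5, KLK6 and KLK7 move to 86.2, 209 and 233 CPM, and the basal keratins KRT5, KRT6A, KRT14 and KRT17 stay under 3 CPM.

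Adhesion genes changed member by member. Of the 18 integrins and laminins tested, 7 rose and 5 fell, with a median log2 fold change of 0.059. The laminin chain gene LAMA3 was at 19.5, 27.1 and 23.2 CPM in the NIR libraries and at 76.9, 71.8 and 74.6 CPM in the IR libraries (log2 fold change 1.69 ± 0.0932, adjusted p = 5.5e-13), and ITGB4, the integrin subunit of hemidesmosomes, was at 441, 491 and 498 CPM in the NIR libraries and at 1069, 895 and 971 CPM in the IR libraries (log2 fold change 1.04 ± 0.0656, adjusted p = 5.2e-12). The laminin chain gene LAMB3 rose (log2 fold change 0.50 ± 0.0933, adjusted p = 9.6e-05). ITGB3 fell to traces, at 1.71, 3.08 and 1.95 CPM in the NIR libraries and at 0.183, 0.416 and 0.311 CPM in the IR libraries (log2 fold change -2.84 ± 0.436, adjusted p = 7.8e-06), and ITGA1 fell by 0.96 on the log2 scale, while ITGA2 did not pass the threshold (log2 fold change 0.048 ± 0.0717, adjusted p = 0.6). The number of genes of this list that fell became 3 without IR replicate 1.

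Of the 9 cadherins and EMT factors tested, 2 rose and 3 fell (55.6% called, against 52.5% of all genes). E-cadherin (CDH1) was at 162, 149 and 153 CPM in the NIR libraries and at 222, 213 and 213 CPM in the IR libraries (log2 fold change 0.49 ± 0.0583, adjusted p = 2.2e-07), and P-cadherin (CDH3) rose (log2 fold change 0.49 ± 0.0570, adjusted p = 1.4e-07). The mesenchymal genes that fell were fibronectin (FN1), from 74.8 ± 19.6 to 42.3 ± 2.42 CPM (log2 fold change -0.81 ± 0.113, adjusted p = 2.1e-06), and 2 genes near the detection limit, vimentin (VIM) at 0.965 and 0.258 CPM and TWIST1 at 2.63 and 1.08 CPM in NIR and IR. ZEB1 stayed between 2.10 and 3.22 CPM and did not pass the threshold (adjusted p = 0.89). Desmosome genes split evenly, 3 higher and 3 lower of 11, and the share called (54.5%) was near that of all genes (52.5%). Desmocollin genes moved apart, with DSC3 higher (log2 fold change 0.89 ± 0.0855, adjusted p = 6.5e-09) and DSC2 lower (log2 fold change -0.41 ± 0.0686, adjusted p = 2.7e-05). The junction genes JUP and PERP rose by 0.38 and 0.44 on the log2 scale, desmoplakin (DSP) did not pass the threshold (log2 fold change -0.13 ± 0.0593, adjusted p = 0.071) except without NIR replicate 2 or with no filter (adjusted p from 0.018 to 0.047), and DSG3 was too low to be tested.

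Both activator genes of the plasminogen system, which promotes matrix breakdown, rose. The urokinase gene PLAU was at 41.0, 44.6 and 41.2 CPM in the NIR libraries and at 94.1, 95.3 and 103 CPM in the IR libraries (log2 fold change 1.21 ± 0.0680, adjusted p = 7.2e-13). PLAT and the metalloproteinase inhibitor gene TIMP1 rose by 0.97 and 0.39 on the log2 scale. Of the 13 matrix proteases and plasminogen genes tested, 7 rose and 3 fell, with a median log2 fold change of 0.22. The metalloproteinase gene MMP7 stayed under 1 CPM in every library (log2 fold change 0.11 ± 0.518, adjusted p = 0.88).

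Genes that report ERK signalling were mostly lower after irradiation. Of the 17 ERK feedback and output genes tested, 3 rose and 9 fell, with a median log2 fold change of -0.48. EGR1, an immediate early transcription factor, was at 218, 196 and 210.4 CPM in the NIR libraries and at 74.2, 67.6 and 60.7 CPM in the IR libraries (log2 fold change -1.62 ± 0.0717, adjusted p = 1.4e-14). PHLDA1 was at 550.2, 579 and 531 CPM in the NIR libraries and at 349, 347 and 352 CPM in the IR libraries (log2 fold change -0.66 ± 0.0544, adjusted p = 6.1e-10). The phosphatase gene DUSP6, the inhibitor gene SPRY4, ETV4 and IER3 fell by 0.66, 0.55, 0.70 and 0.79 on the log2 scale. FOSL1 did not pass the threshold (log2 fold change 0.027 ± 0.0923, adjusted p = 0.83). Cyclin D1, listed as an ERK output, rose as given above. In MCF10A the same list had 10 genes higher and 4 lower. The test of the difference called 10 of 17 lower in HCT116 and 2 higher, with EGR1 at a log2 difference of -2.03 ± 0.114, adjusted p = 6.9e-13 and PHLDA1 at -1.10 ± 0.0615, adjusted p = 6.5e-13. The number called higher became 1 without HCT116 IR replicate 1 or MCF10A NIR replicate 1.

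Of 12 EGF receptors and ligands tested, 4 rose and 2 fell (50% called, against 52.5% of all genes), and the others did not pass the threshold. NRG1, a neuregulin, was at 1.24, 1.58 and 1.95 CPM in the NIR libraries and at 10.3, 6.44 and 7.23 CPM in the IR libraries (log2 fold change 2.34 ± 0.227, adjusted p = 8.1e-09). HBEGF, TGFA and AREG, ligands of EGFR, rose by 1.06, 0.75 and 0.34 on the log2 scale. The receptor gene EGFR was at 161, 180.1 and 180.4 CPM in NIR and 196, 172 and 194 in IR (log2 fold change 0.12 ± 0.0654, adjusted p = 0.14), and ERBB3 fell (log2 fold change -0.55 ± 0.0727, adjusted p = 9.8e-07). AP-1 and other immediate early genes were lower in 8 and higher in 4 of 17 (median -0.23). FOS was at 22.0, 16.2 and 16.8 CPM in the NIR libraries and at 6.52, 4.41 and 7.15 CPM in the IR libraries (log2 fold change -1.61 ± 0.158, adjusted p = 9.8e-09). ATF3 was at 28.9, 26.6 and 27.8 CPM in the NIR libraries and at 93.2, 91.9 and 91.8 CPM in the IR libraries (log2 fold change 1.74 ± 0.0698, adjusted p = 2.5e-15), and JUN rose (log2 fold change 0.47 ± 0.105, adjusted p = 6.3e-04). In MCF10A 9 genes of this list rose and 0 fell, and 12 of 17 differed toward a lower response in HCT116.

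Wnt signalling is constitutively active in most colorectal carcinoma, and its target genes were divided. Of the 14 Wnt target and crypt genes tested, 4 rose and 7 fell, with a median log2 fold change of -0.13. AXIN2, the most used readout of the pathway, was at 14.7, 16.3 and 14.6 CPM in NIR and 14.1, 16.6 and 13.6 in IR and did not pass the threshold (adjusted p = 0.84). TNFRSF19 was at 5.35, 5.00 and 4.71 CPM in the NIR libraries and at 1.07, 0.784 and 1.13 CPM in the IR libraries (log2 fold change -2.35 ± 0.249, adjusted p = 3.6e-08). NKD1, NOTUM, EPHB3 and the secreted inhibitor gene DKK1 fell by 0.67, 0.73, 0.82 and 0.54 on the log2 scale. RNF43, a ligase that removes Wnt receptors, rose (log2 fold change 0.24 ± 0.0912, adjusted p = 0.03), a call lost without IR replicate 2, NIR replicate 1 or NIR replicate 3 (adjusted p from 0.066 to 0.2). The number of genes of this list that rose became 2 without NIR replicate 1. ASCL2 had no count, and LGR5 was too low to be tested.

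Among intestinal differentiation genes, 4 of 10 tested rose and 1 fell (50% called, against 52.5% of all genes). Of the 26 listed, 16 were too low to be tested. CEACAM1, an adhesion molecule of differentiated epithelium, was at 3.91, 5.97 and 4.56 CPM in the NIR libraries and at 40.3, 33.3 and 33.3 CPM in the IR libraries (log2 fold change 2.90 ± 0.135, adjusted p = 3.1e-14). The goblet cell mucin MUC2 rose from 0.515 ± 0.339 to 3.29 ± 0.350 CPM (log2 fold change 2.64 ± 0.385, adjusted p = 4.0e-06). The intestinal transcription factor CDX2 was at 9.03, 9.73 and 11.3 CPM in NIR and 12.9, 12.5 and 12.4 in IR (log2 fold change 0.34 ± 0.126, adjusted p = 0.028), a call lost without IR replicate 1, IR replicate 2, IR replicate 3, NIR replicate 1 or NIR replicate 2 (adjusted p from 0.051 to 0.13). DPP4, a brush border peptidase, fell (log2 fold change -0.48 ± 0.124, adjusted p = 0.0021), VIL1 did not pass the threshold (adjusted p = 0.39), and TFF3 and CDX1 had no count.

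Of the 14 YAP targets and partners tested, 10 rose and 3 fell, with a median log2 fold change of 0.48. The tissue factor gene F3 was at 49.6, 69.7 and 66.4 CPM in the NIR libraries and at 205, 184 and 189 CPM in the IR libraries (log2 fold change 1.65 ± 0.0899, adjusted p = 4.6e-13). CCN1, AJUBA and AMOTL2 rose by 0.85, 0.87 and 0.86 on the log2 scale. CCN2 rose (log2 fold change 0.52 ± 0.215, adjusted p = 0.045), a call lost without IR replicate 1, IR replicate 2, IR replicate 3, NIR replicate 1 or NIR replicate 3, with no filter, with a replicate block or with limma-voom (adjusted p from 0.052 to 0.15). ANKRD1 was too low to be tested, and the angiomotin gene AMOT fell from 31.5 ± 1.97 to 12.8 ± 0.725 CPM (log2 fold change -1.29 ± 0.0995, adjusted p = 1.8e-10). TGF-beta pathway genes were split, 7 higher and 6 lower of 19. The latent TGF-beta binding protein genes moved in opposite directions: LTBP2 was at 4.95, 7.02 and 7.17 CPM in the NIR libraries and at 24.6, 20.5 and 23.2 CPM in the IR libraries (log2 fold change 1.85 ± 0.137, adjusted p = 8.8e-11), and LTBP1 fell from 29.5 ± 2.24 to 13.3 ± 0.500 CPM (log2 fold change -1.15 ± 0.0984, adjusted p = 1.0e-09). ID1, an inhibitor of bHLH factors, was at 221, 239 and 269 CPM in the NIR libraries and at 144, 117 and 143 CPM in the IR libraries (log2 fold change -0.85 ± 0.0784, adjusted p = 3.9e-09), and ID3 did not pass the threshold (log2 fold change 0.12 ± 0.0867, adjusted p = 0.27). The receptor gene TGFBR2 and the inhibitor gene SMAD7 rose by 0.42 and 0.82, the coreceptor gene TGFBR3 fell by 1.15, and the ligand gene TGFB2 was at 0.285 and 0.642 CPM in NIR and IR (log2 fold change 1.18 ± 0.558, adjusted p = 0.081).

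Secreted factors typical of arrested cells rose in part. Of the 33 secretory factors tested, 15 rose and 5 fell, with a median log2 fold change of 0.58, while 11 of the 44 listed were too low to be tested. IGFBP6, which binds insulin-like growth factor, was at 10.2, 14.0 and 18.5 CPM in the NIR libraries and at 44.7, 37.7 and 46.8 CPM in the IR libraries (log2 fold change 1.61 ± 0.140, adjusted p = 1.3e-09). IL18, a cytokine made by epithelium, was at 77.3, 66.7 and 73.3 CPM in the NIR libraries and at 130.1, 130.1 and 120.5 CPM in the IR libraries (log2 fold change 0.82 ± 0.0674, adjusted p = 5.5e-10). GDF15, a stress-induced member of the TGF-beta family that is also a p53 target, was at 149, 180.4 and 202 CPM in the NIR libraries and at 503, 410.1 and 445 CPM in the IR libraries (log2 fold change 1.36 ± 0.0871, adjusted p = 7.1e-12). The inflammatory chemokine genes did not follow: CXCL8 was at 5.32, 5.03 and 5.79 CPM in NIR and 5.33, 7.59 and 4.82 in IR (log2 fold change 0.16 ± 0.185, adjusted p = 0.5), and CXCL1 at 1.01 and 1.56 CPM (log2 fold change 0.63 ± 0.395, adjusted p = 0.19), called as higher without NIR replicate 2 (adjusted p = 0.035). IL1B and INHBA rose from and to traces, reaching 1.99 and 0.525 CPM. VEGFA fell, as given with the hypoxia genes. In MCF10A CXCL8 went from 131 ± 9.37 to 356 ± 25.0 CPM, and its response differed from that of HCT116 (log2 difference -1.32 ± 0.156, adjusted p = 2.2e-07). The list as a whole had 19 of 42 genes with a lower and 6 with a higher response in HCT116, the second number becoming 3 with limma-voom. Of the 13 NF-kappaB subunits and feedback genes, 3 rose and 4 fell (53.8% called, against 52.5% of all genes). RELB and TNFAIP2 rose by 0.48 and 0.49, NFKB2, REL and BCL3 fell by 0.25, 0.63 and 0.69 on the log2 scale. The feedback inhibitor gene NFKBIA did not pass the threshold (log2 fold change 0.049 ± 0.138, adjusted p = 0.79), and BIRC3 rose (log2 fold change 0.22 ± 0.0878, adjusted p = 0.043), a call lost without IR replicate 2, IR replicate 3, NIR replicate 1, NIR replicate 2 or NIR replicate 3, with library size alone, with no filter or with a replicate block (adjusted p from 0.052 to 0.16).

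Interferon-stimulated genes mostly rose, and the promoters of 2 of them are shown for an element found in many promoters of the list. In IFIT3 (chr10:89327747-89327996, plus strand) and BST2 (chr19:17405631-17405880, minus strand, GRCh38.p14) the capitals mark GAAA, any 2 bases and GAAA again on either strand, a minimal form of the interferon-stimulated response element, with overlapping matches joined.
IFIT3: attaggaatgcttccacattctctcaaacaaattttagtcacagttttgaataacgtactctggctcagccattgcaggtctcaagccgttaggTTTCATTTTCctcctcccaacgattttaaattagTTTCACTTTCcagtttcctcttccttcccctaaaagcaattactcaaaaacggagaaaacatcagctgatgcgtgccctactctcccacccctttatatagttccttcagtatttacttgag
BST2: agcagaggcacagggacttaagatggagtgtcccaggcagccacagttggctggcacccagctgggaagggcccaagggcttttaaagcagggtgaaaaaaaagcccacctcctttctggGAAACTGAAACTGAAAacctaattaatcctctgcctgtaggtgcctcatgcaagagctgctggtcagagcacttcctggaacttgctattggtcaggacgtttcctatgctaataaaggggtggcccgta

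This element was in 22 of 33 matched promoters of the list (66.7%) and in 3.88% of those of all tested genes. Of the 41 interferon-stimulated genes tested, 28 rose and 1 fell, with a median log2 fold change of 0.58. IFIT2 was at 10.2, 9.07 and 12.3 CPM in the NIR libraries and at 31.2, 39.5 and 33.5 CPM in the IR libraries (log2 fold change 1.73 ± 0.119, adjusted p = 2.4e-11), and IFIT3 was at 5.64, 6.43 and 5.14 CPM in the NIR libraries and at 18.8, 17.9 and 16.2 CPM in the IR libraries (log2 fold change 1.63 ± 0.130, adjusted p = 3.1e-10). Both code for RNA-binding antiviral proteins. ISG15, a ubiquitin-like modifier, was at 55.1, 47.0 and 57.6 CPM in the NIR libraries and at 108, 92.5 and 102 CPM in the IR libraries (log2 fold change 0.93 ± 0.0784, adjusted p = 7.7e-10). IFIT1 and IFI6 rose by 1.14 and 0.71 on the log2 scale, and BST2, a tether of budding viruses, rose from 13.4 ± 1.02 to 31.5 ± 5.22 CPM (log2 fold change 1.25 ± 0.115, adjusted p = 3.4e-09). The largest rise was that of TRIM22, which is also a p53 target, from 1.43 ± 0.426 to 9.64 ± 0.499 CPM (log2 fold change 2.74 ± 0.202, adjusted p = 8.7e-11). MX1 and IFI44L stayed under 3 CPM without passing the threshold (adjusted p = 0.84 and 0.34), and IRF7 was the member that fell (log2 fold change -0.92 ± 0.134, adjusted p = 3.9e-06). SAMD9L rose from 0.313 ± 0.392 to 1.14 ± 0.201 CPM (log2 fold change 1.82 ± 0.652, adjusted p = 0.023), a call lost without IR replicate 1, IR replicate 2, IR replicate 3, NIR replicate 2 or NIR replicate 3 or with DESeq2 (adjusted p from 0.051 to 0.21).

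Of the 16 MHC class I presentation genes tested, 9 rose and 3 fell, with a median log2 fold change of 0.18. The peptide transporter gene TAP1 was at 37.7, 43.4 and 41.3 CPM in the NIR libraries and at 64.0, 60.2 and 61.3 CPM in the IR libraries (log2 fold change 0.61 ± 0.0748, adjusted p = 3.5e-07), and B2M, the light chain of class I molecules, rose by 0.18 on the log2 scale. The immunoproteasome genes were not moved together: PSMB10 rose from 0.672 ± 0.120 to 2.95 ± 0.269 CPM (log2 fold change 2.13 ± 0.317, adjusted p = 5.2e-06), and PSMB9 fell from 8.56 ± 1.21 to 4.57 ± 0.822 CPM (log2 fold change -0.89 ± 0.172, adjusted p = 1.4e-04). The trimming peptidase gene ERAP2 rose by 1.31 on the log2 scale. NLRC5, the class I transactivator, rose (log2 fold change 0.35 ± 0.128, adjusted p = 0.023), a call lost without IR replicate 1, IR replicate 3 or NIR replicate 2 (adjusted p from 0.072 to 0.12). Of 17 ligands of NK and T cell receptors tested, 4 rose and 4 fell (47.1% called, against 52.5% of all genes). ULBP1, a ligand of the activating receptor NKG2D, was at 12.6, 14.9 and 18.9 CPM in the NIR libraries and at 4.90, 6.27 and 5.13 CPM in the IR libraries (log2 fold change -1.49 ± 0.157, adjusted p = 2.9e-08). MICA, another such ligand, was at 32.4 and 29.5 CPM in NIR and IR (adjusted p = 0.34), and CD274, which codes for PD-L1, at 5.16 and 5.12 CPM (adjusted p = 0.99). Galectin-9 (LGALS9) was at 2.37, 1.86 and 1.56 CPM in the NIR libraries and at 7.16, 7.88 and 5.63 CPM in the IR libraries (log2 fold change 1.84 ± 0.213, adjusted p = 1.3e-07), and VTCN1 and NCR3LG1, the ligand of NKp30, rose by 1.33 and 0.91.

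Genes of the hypoxia response fell together, and 2 promoters are printed because these genes, ANKRD37 and CA9, fell the most in the list. In ANKRD37 (chr4:185396591-185396840, plus strand) and CA9 (chr9:35673678-35673927, plus strand, GRCh38.p14) the capitals mark ACGTG, the core that hypoxia-inducible factors bind, on either strand, with overlapping matches joined.
ANKRD37: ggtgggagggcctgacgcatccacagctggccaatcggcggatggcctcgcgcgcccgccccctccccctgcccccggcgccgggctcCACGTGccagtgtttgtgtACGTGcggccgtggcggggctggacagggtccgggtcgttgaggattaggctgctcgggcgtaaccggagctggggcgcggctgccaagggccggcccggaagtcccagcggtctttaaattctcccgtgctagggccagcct
CA9: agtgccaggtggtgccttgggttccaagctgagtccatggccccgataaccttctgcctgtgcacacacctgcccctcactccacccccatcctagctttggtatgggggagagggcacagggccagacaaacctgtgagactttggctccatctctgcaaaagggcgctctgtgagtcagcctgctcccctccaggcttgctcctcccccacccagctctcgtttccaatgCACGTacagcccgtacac

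The core was in 14 of 21 matched promoters of hypoxia-responsive genes (66.7%) and in 11 of 17 of glycolysis enzymes (64.7%), against 31.1% of those of all tested genes. Of the 26 hypoxia-responsive genes tested, 4 rose and 21 fell, with a median log2 fold change of -0.66. ANKRD37 was given above. BNIP3, a receptor for the removal of mitochondria, was at 119.7, 139.6 and 108 CPM in the NIR libraries and at 53.6, 47.2 and 55.1 CPM in the IR libraries (log2 fold change -1.23 ± 0.0813, adjusted p = 1.2e-11). PDK1, a kinase that inhibits pyruvate dehydrogenase, was at 99.95, 111 and 86.2 CPM in the NIR libraries and at 50.6, 46.0 and 49.9 CPM in the IR libraries (log2 fold change -1.01 ± 0.0781, adjusted p = 1.8e-10). ANGPTL4 was at 56.8, 68.4 and 63.3 CPM in the NIR libraries and at 24.9, 19.9 and 28.3 CPM in the IR libraries (log2 fold change -1.37 ± 0.102, adjusted p = 9.6e-11), and PFKFB4, which makes an activator of glycolysis, was at 65.8, 77.9 and 67.0 CPM in the NIR libraries and at 31.8, 28.2 and 25.6 CPM in the IR libraries (log2 fold change -1.29 ± 0.0879, adjusted p = 2.2e-11). The IR libraries of these genes all lay under the NIR libraries, as for 30.6% of all genes tested. EGLN3, an oxygen-sensing prolyl hydroxylase, and VEGFA, an angiogenic factor, fell by 0.94 and 0.50 on the log2 scale. CA9 was at 2.14, 2.36 and 1.48 CPM in NIR and 0.670, 0.343 and 0.0777 in IR. The members that rose included the glucose transporter SLC2A1 (log2 fold change 1.05 ± 0.0677, adjusted p = 7.9e-12) and CA12 (log2 fold change 0.55 ± 0.101, adjusted p = 7.8e-05).

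Glycolysis enzymes fell in 16 of 17 genes, with a median of -0.70, and none rose. ENO1, one of the most abundant transcripts of these cells, was at 3342, 3669.9 and 3362 CPM in the NIR libraries and at 1689.6, 1609 and 1685 CPM in the IR libraries (log2 fold change -1.05 ± 0.0515, adjusted p = 7.6e-14). ENO2 was at 199.5, 218 and 187 CPM in the NIR libraries and at 73.3, 67.7 and 75.5 CPM in the IR libraries (log2 fold change -1.48 ± 0.0662, adjusted p = 1.7e-14). LDHA, which makes lactate, was at 1985, 2182 and 1861 CPM in the NIR libraries and at 1082, 1026 and 1048 CPM in the IR libraries (log2 fold change -0.93 ± 0.0567, adjusted p = 3.5e-12). ALDOC, HK2 and PGK1 fell by 1.41, 0.87 and 0.70 on the log2 scale. ALDOA fell too (log2 fold change -0.89 ± 0.146, adjusted p = 1.9e-05), but its level of 13.1 CPM in NIR is low beside those of the other enzymes, and reads shared with overlapping or near-identical genes may have been left out. PFKM was the member that did not pass the threshold (log2 fold change -0.11 ± 0.0568, adjusted p = 0.1).

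The hypoxia list moved the other way in MCF10A. There 17 hypoxia-responsive genes rose and 3 fell, and the test of the difference called 20 of 26 lower in HCT116 and 1 higher, with a median log2 difference of -1.002. The number called higher became 2 without HCT116 IR replicate 2, HCT116 IR replicate 3, HCT116 NIR replicate 3, MCF10A IR replicate 1, MCF10A IR replicate 3 or MCF10A NIR replicate 3, with DESeq2, with library size alone, without the mitochondrially encoded and 10 most abundant genes, with halved counts or with limma-voom and 3 without MCF10A IR replicate 2 or with no filter. BNIP3 went from 75.0 ± 3.37 to 106 ± 5.97 CPM in MCF10A (log2 difference -1.78 ± 0.107, adjusted p = 2.0e-12), and ANGPTL4 from 276 ± 10.1 to 491 ± 9.21 CPM (log2 difference -2.26 ± 0.111, adjusted p = 5.9e-14). Of the glycolysis enzymes 1 rose and 7 fell in MCF10A, and the difference was called lower in 15 of 17 genes and higher in 0, with a median of -0.60. The count of 0 became 1 without HCT116 IR replicate 2, MCF10A IR replicate 1, MCF10A IR replicate 2 or MCF10A IR replicate 3, with library size alone, without the mitochondrially encoded and 10 most abundant genes or with no filter. LDHA went from 2859.6 ± 73.3 to 2546 ± 142 CPM in MCF10A (log2 difference -0.81 ± 0.0725, adjusted p = 2.1e-09). Oxygen and cell density are not given in the labels.

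Sterol genes that SREBP2 controls were lower. Of the 26 cholesterol synthesis and uptake genes tested, 2 rose and 19 fell, with a median log2 fold change of -0.49. Besides INSIG1, the largest fall was that of STARD4, a cholesterol carrier, at 78.1, 86.2 and 81.9 CPM in the NIR libraries and at 20.6, 17.7 and 20.3 CPM in the IR libraries (log2 fold change -2.07 ± 0.0804, adjusted p = 1.5e-15). HMGCS1, SQLE and ACAT2 fell by 0.46, 0.67 and 1.17 on the log2 scale. TM7SF2 and NSDHL were the members that rose (1 without IR replicate 1, IR replicate 2, NIR replicate 1 or NIR replicate 3), by 1.07 and 0.27. In MCF10A STARD4 was at 80.8 ± 6.80 and 79.7 ± 3.20 CPM in NIR and IR and INSIG1 went from 56.5 ± 1.89 to 33.2 ± 2.09 CPM, and both responses differed between the lines (log2 difference -2.11 ± 0.101, adjusted p = 4.7e-14 for STARD4 and -2.02 ± 0.120, adjusted p = 1.9e-12 for INSIG1). A CCAAT box was in 17 of 19 matched promoters (89.5%), against 42.5% of those of all tested genes. The sterol regulatory element TCACNCCAC was in 1 of the 19 (5.26%, against 1.41%) and in 0 of 13 matched promoters of fatty acid synthesis genes.

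Fatty acid synthesis genes were divided, 4 higher and 7 lower of 14, with a median of -0.32. The desaturase gene SCD was at 1041, 1107 and 1159 CPM in the NIR libraries and at 565, 567 and 564 CPM in the IR libraries (log2 fold change -0.96 ± 0.0557, adjusted p = 1.4e-12), and the regulator gene SREBF1 was at 143, 139.5 and 158 CPM in the NIR libraries and at 73.5, 59.3 and 71.1 CPM in the IR libraries (log2 fold change -1.11 ± 0.0756, adjusted p = 2.2e-11). LPIN1, a phosphatidate phosphatase, and the desaturase gene FADS1 fell by 1.40 and 0.65 on the log2 scale. FASN, the fatty acid synthase gene, was at 748, 728 and 797 CPM in NIR and 803, 709 and 770.5 in IR (adjusted p = 0.88), and ACACA rose (log2 fold change 0.25 ± 0.0580, adjusted p = 9.1e-04). Of 9 efflux and LXR target genes, 4 rose and 1 fell (55.6% called, against 52.5% of all genes). The cholesterol exporter ABCA1 was at 12.8, 11.2 and 13.1 CPM in the NIR libraries and at 23.7, 23.7 and 24.1 CPM in the IR libraries (log2 fold change 0.95 ± 0.104, adjusted p = 5.8e-08). LPCAT3 rose by 0.60 on the log2 scale, while ABCG1 and MYLIP did not pass the threshold (adjusted p = 0.12 and 0.91). APOE rose near the detection limit, from 0.723, 1.37 and 0.833 CPM in NIR to 3.26, 2.50 and 1.40 in IR (log2 fold change 1.31 ± 0.362, adjusted p = 0.004), a call lost without IR replicate 1 (adjusted p = 0.0502). The number of fatty acid genes that rose became 2 without IR replicate 3.

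**Figure D5:**
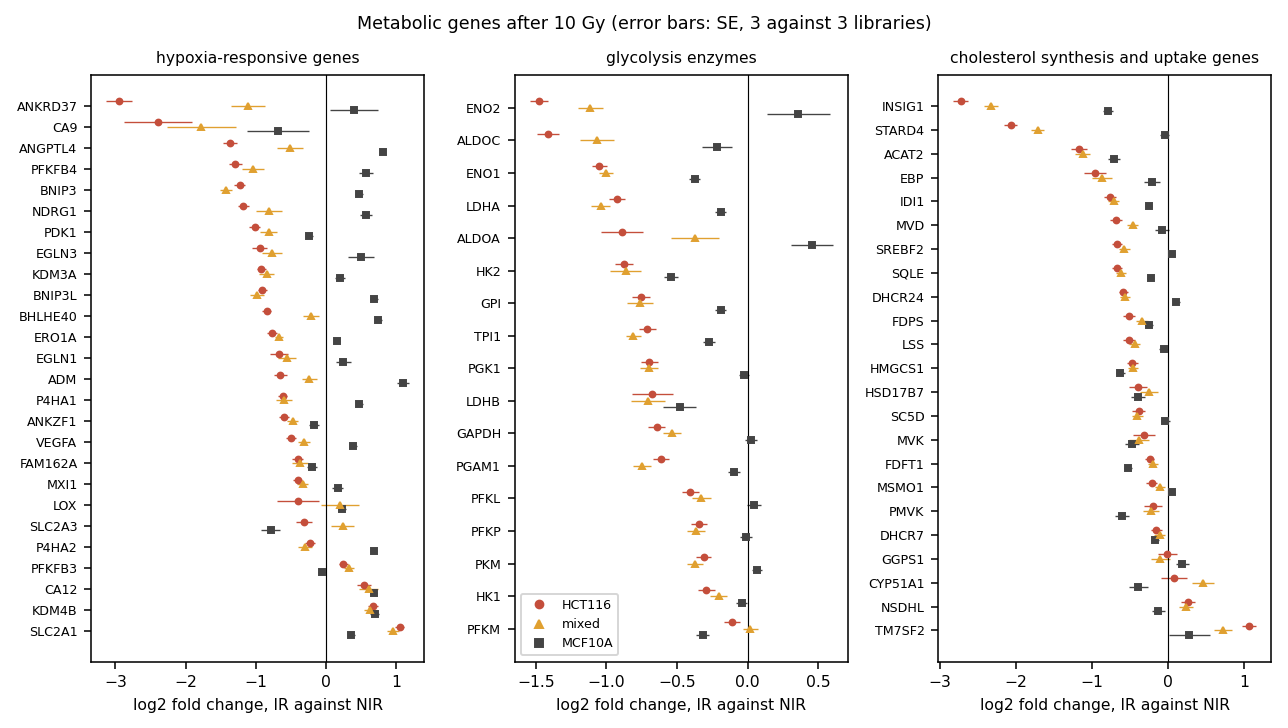
Log2 fold change of IR against NIR for hypoxia-responsive genes, glycolysis enzymes and cholesterol genes, one row per gene reported. Circles are HCT116, triangles mixed cultures and squares MCF10A, and error bars are SE over 3 against 3 libraries. In the left panel most circles lie left of 0 and most squares right of it (BNIP3 at -1.23 in HCT116 and 0.47 in MCF10A), and INSIG1 and STARD4 lie lowest in the right panel.

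All 13 mitochondrially encoded mRNAs rose as a share of the library, with a median log2 fold change of 0.68. MT-ND1, a subunit of complex I, was at 2660.01, 2569 and 3110.2 CPM in the NIR libraries and at 5675, 5027 and 4931 CPM in the IR libraries (log2 fold change 0.91 ± 0.0663, adjusted p = 6.3e-11). MT-CO1, a subunit of complex IV, rose less, at 15456, 15070.3 and 14584 CPM in the NIR libraries and at 20138, 20151 and 19734 CPM in the IR libraries (log2 fold change 0.42 ± 0.0416, adjusted p = 1.1e-08). MT-ND3 rose by 0.94 and MT-CYB by 0.70 on the log2 scale. MT-ND4L rose (log2 fold change 0.81 ± 0.0906, adjusted p = 7.7e-08), and MT-ATP8 rose (log2 fold change 0.90 ± 0.191, adjusted p = 3.6e-04), a call lost with DESeq2 (adjusted p = 0.076). The 56 nuclear genes of the same respiratory complexes had a median of -0.05, with 5 higher and 17 lower. Among these, the complex III genes UQCRC1 and CYC1 fell from 183 ± 4.04 to 114 ± 6.49 CPM (log2 fold change -0.68 ± 0.0601, adjusted p = 1.6e-09) and from 184 ± 6.06 to 116 ± 8.67 CPM (log2 fold change -0.66 ± 0.0629, adjusted p = 6.2e-09), and ATP5F1A and NDUFB6 fell by 0.32 and 0.58 on the log2 scale. NDUFV2 fell (log2 fold change -0.52 ± 0.171, adjusted p = 0.013), a call lost without IR replicate 1 or NIR replicate 2 (adjusted p from 0.056 to 0.085). NDUFS1 and COX5B did not pass the threshold (adjusted p = 0.47 and 0.56). SDHB fell (log2 fold change -0.16 ± 0.0664, adjusted p = 0.042), a call lost without IR replicate 1, IR replicate 3, NIR replicate 2 or NIR replicate 3, with DESeq2, with upper-quartile normalization, with a replicate block or with halved counts (adjusted p from 0.053 to 0.2), and the number of these genes that rose became 3 without IR replicate 2 or NIR replicate 1 and 9 without NIR replicate 3.

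Cytosolic ribosomal protein genes stayed near the median of all genes: 9 of 75 rose, 19 fell and the median was -0.015. RPL8 fell the most (log2 fold change -0.51 ± 0.0509, adjusted p = 1.2e-08), RPS14 fell (log2 fold change -0.40 ± 0.0577, adjusted p = 3.1e-06), and RPS6 and RPL11 did not pass the threshold (adjusted p = 0.46 and 0.4). RPLP0 fell (log2 fold change -0.17 ± 0.0595, adjusted p = 0.021), a call lost without IR replicate 2, IR replicate 3, NIR replicate 2 or NIR replicate 3 (adjusted p from 0.063 to 0.12). The number that rose became 4 without IR replicate 1 or NIR replicate 1, 5 without NIR replicate 2 and 24 without NIR replicate 3, and the number that fell became 11 without IR replicate 3. RPL17 and RPL23A had the largest rises (0.40 and 0.46 on the log2 scale), but share sequence with overlapping or near-identical genes, and the calls were lost without IR replicate 1, IR replicate 2, IR replicate 3, NIR replicate 1 or NIR replicate 2 (adjusted p from 0.056 to 0.15) for RPL17 and with DESeq2 (adjusted p = 0.072) for RPL23A.

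Of the 30 lysosome and autophagy genes tested, 16 rose and 5 fell, with a median log2 fold change of 0.28. LAMP1, a membrane protein of lysosomes, was at 204, 198 and 222 CPM in the NIR libraries and at 318, 289.7 and 303 CPM in the IR libraries (log2 fold change 0.55 ± 0.0611, adjusted p = 6.3e-08). The protease gene CTSD, the proton pump gene ATP6V0D1, WIPI1 and the autophagy receptor gene SQSTM1 rose by 0.61, 0.59, 0.55 and 0.27 on the log2 scale. GLB1, which codes for the beta-galactosidase stained in arrested cells, was at 43.0, 33.5 and 35.7 CPM in NIR and 37.9, 41.1 and 39.4 in IR and did not pass the threshold (adjusted p = 0.44). In MCF10A 25 of 30 genes of this list rose, and the difference was called lower in HCT116 for 19 and higher for 1, which became 2 without HCT116 IR replicate 2, HCT116 NIR replicate 3, MCF10A IR replicate 1 or MCF10A IR replicate 3, without the mitochondrially encoded and 10 most abundant genes or with no filter.

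Amino acid and redox genes fell in part. Of 20 ATF4 stress response genes, 4 rose and 11 fell, with a median of -0.48. PHGDH, the first enzyme of serine synthesis, was at 95.1, 90.4 and 99.6 CPM in the NIR libraries and at 19.1, 21.1 and 27.9 CPM in the IR libraries (log2 fold change -2.07 ± 0.0979, adjusted p = 4.3e-14). ASNS, which makes asparagine, was at 7.35, 8.33 and 10.3 CPM in the NIR libraries and at 1.61, 1.81 and 3.22 CPM in the IR libraries (log2 fold change -1.98 ± 0.224, adjusted p = 9.2e-08). SLC7A11, the cystine importer gene, fell from 71.9 ± 9.77 to 24.3 ± 2.21 CPM (log2 fold change -1.56 ± 0.0943, adjusted p = 2.8e-12), and TRIB3 and DDIT3 fell by 0.65 and 1.27 on the log2 scale. NUPR1 rose but stayed under 1 CPM. ATF3, listed here too, rose as given above, and the number that rose became 7 without NIR replicate 3. NRF2 targets were divided, 7 higher and 9 lower of 22. The quinone reductase gene NQO1 was at 562, 508 and 493 CPM in the NIR libraries and at 228, 219 and 245 CPM in the IR libraries (log2 fold change -1.17 ± 0.0609, adjusted p = 2.0e-13), and GCLM, of glutathione synthesis, fell by 0.58. The heme oxygenase gene HMOX1 and AKR1B10 rose by 0.82 and 2.27, and AKR1C1, at or under 2.63 CPM throughout, fell by 1.17.

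Of 4 metallothioneins tested, 2 rose and 0 fell (50% called, against 52.5% of all genes). The ferritin heavy chain gene FTH1 was at 162, 187 and 338 CPM in the NIR libraries and at 751, 533 and 559.8 CPM in the IR libraries (log2 fold change 1.43 ± 0.169, adjusted p = 1.8e-07), and reads shared with its many processed copies make its level uncertain. The metallothionein gene MT1E was at 50.2, 69.8 and 103 CPM in NIR and 171, 142 and 150.01 in IR (log2 fold change 1.07 ± 0.145, adjusted p = 1.5e-06), MT2A at 146, 202 and 286 and 344, 236 and 282 (log2 fold change 0.45 ± 0.148, adjusted p = 0.013), and MT1X did not pass the threshold (log2 fold change 0.18 ± 0.202, adjusted p = 0.49). The MT2A groups overlapped, and its call was lost without IR replicate 1, NIR replicate 1 or NIR replicate 2 or with DESeq2 (adjusted p from 0.073 to 0.24). In each of these cases MT1E was the only one that rose.

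Protein folding genes were lower in the endoplasmic reticulum. Of the 14 chaperone genes of this compartment tested, 1 rose and 11 fell, with a median log2 fold change of -0.33. HSP90B1 was at 1727, 1573 and 1399 CPM in the NIR libraries and at 885, 975 and 1008 CPM in the IR libraries (log2 fold change -0.70 ± 0.0648, adjusted p = 3.4e-09), and HSPA5, the main chaperone of the compartment, was at 1082, 964 and 965 CPM in the NIR libraries and at 733, 774 and 763 CPM in the IR libraries (log2 fold change -0.40 ± 0.0561, adjusted p = 2.4e-06). PDIA6, HERPUD1 and HYOU1 fell by 0.61, 0.50 and 0.33 on the log2 scale, and DNAJB9 was the member that rose (log2 fold change 0.45 ± 0.114, adjusted p = 0.0019). HERPUD1 went from 39.8 ± 0.744 to 77.4 ± 7.63 CPM in MCF10A, a response that differed (log2 difference -1.52 ± 0.103, adjusted p = 1.8e-11). Cytosolic heat shock chaperones were divided, 5 higher and 6 lower of 14. The abundant HSP90AA1 was at 4177, 4172 and 4085 CPM in the NIR libraries and at 2705, 2822 and 2759 CPM in the IR libraries (log2 fold change -0.58 ± 0.0470, adjusted p = 4.4e-10), and HSP90AB1 and HSPD1 fell by 0.62 and 0.20. The cochaperone genes BAG3 and DNAJA1 rose by 0.65 and 0.59. HSPA1A, whose copy HSPA1B is near-identical, stayed under 1 CPM (log2 fold change -0.087 ± 0.542, adjusted p = 0.91).

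Clustered histone genes, whose replication-dependent mRNAs mostly lack the poly(A) tail that this library type selects, were low. Of 60 listed, 16 were tested, of which 12 rose and 2 fell, with a median of 1.65. The other 44 were too low to be tested, 14 of them without a count, and the tested members had a median level of 1.59 CPM. Members near 0 in NIR entered the test through their IR libraries and could only be called as higher. For such members the filter fixed the direction of the call, so these numbers describe the tested members only. H2AC6 was at 3.99, 5.44 and 4.09 CPM in the NIR libraries and at 29.0, 27.8 and 32.0 CPM in the IR libraries (log2 fold change 2.72 ± 0.127, adjusted p = 3.6e-14), and H2BC5 was at 3.82, 3.20 and 2.93 CPM in the NIR libraries and at 21.02, 18.3 and 22.5 CPM in the IR libraries (log2 fold change 2.63 ± 0.140, adjusted p = 3.0e-13). The linker histone gene H1-2 rose from 5.91 ± 0.936 to 17.7 ± 2.10 CPM (log2 fold change 1.59 ± 0.141, adjusted p = 1.8e-09), and H2BC21 and H3C10 rose by 2.34 and 3.20 on the log2 scale. H2AC20 fell from 0.463, 1.18 and 0.941 CPM to 0.122, 0 and 0.233 CPM, and H4C8 was too low to be tested. The number of histone genes that fell became 0 with a stricter filter or with halved counts and 1 without IR replicate 2, IR replicate 3, NIR replicate 1 or NIR replicate 2. Histone genes of a type are close copies, so reads may be split between them.

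Of 12 long noncoding RNAs tested, 5 rose and 2 fell (58.3% called, against 52.5% of all genes). PURPL, which is induced by p53, was at 10.8, 11.3 and 9.38 CPM in the NIR libraries and at 63.7, 69.9 and 72.97 CPM in the IR libraries (log2 fold change 2.72 ± 0.0913, adjusted p = 9.9e-17). MIR34AHG, the host transcript of the p53-induced microRNA miR-34a, rose from 8.38 ± 0.345 to 21.8 ± 0.905 CPM (log2 fold change 1.39 ± 0.110, adjusted p = 2.8e-10). NORAD and MALAT1 rose by 0.79 and 0.75 on the log2 scale, and NEAT1, the scaffold of paraspeckles, was at 1411, 1414 and 1267 CPM in NIR and 1242, 1379 and 1256 in IR (adjusted p = 0.32). The antisense transcript CDKN2B-AS1 fell (log2 fold change -0.85 ± 0.196, adjusted p = 7.8e-04). Whether counting used the strand is not given in the sources used here, so antisense transcripts may hold reads of their partners.

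Of 35 p53 targets, 27 had a more positive and 3 a more negative response in HCT116. FDXR was at 17.0 ± 0.423 and 18.6 ± 0.761 CPM in NIR and IR of MCF10A (log2 difference 1.28 ± 0.0859, adjusted p = 1.5e-11), and PPM1D at 17.8 ± 2.00 and 17.8 ± 0.523 CPM in NIR and IR (log2 difference 1.40 ± 0.101, adjusted p = 5.3e-11). The simple keratin gene KRT18 was at 154 ± 12.9 and 163 ± 12.8 CPM in NIR and IR there (log2 difference 1.60 ± 0.0887, adjusted p = 5.6e-13), and SUSD2 at 39.9 ± 1.77 and 43.0 ± 0.994 CPM in NIR and IR (log2 difference 3.72 ± 0.116, adjusted p = 9.7e-18). The cell cycle lists fell in both lines, with medians of -1.38 for mitosis and -1.17 for replication genes in MCF10A. PCNA went from 279 ± 7.86 to 148 ± 3.78 CPM in MCF10A (log2 difference 0.86 ± 0.0674, adjusted p = 2.6e-10).

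Few genes responded differently in the mixed cultures and in HCT116 alone. The mixtures were seeded with equal parts, but TNC, AMIGO2 and H2BC11 stood far under their MCF10A levels there. In NIR, TNC was at 0.131, 3.07 and 59.5 CPM in HCT116, the mixture and MCF10A. AMIGO2 was at 6.69, 10.4 and 118 CPM, and H2BC11 at 0.317, 39.3 and 252 CPM. The share of each line in the RNA of the mixture was not tested, so the number of calls does not describe equal parts of both. The test of the difference called 150 of 18072 genes (0.83%), 123 with a more positive (0.681%) and 27 with a more negative response in the mixture (0.149%). Within the mixed cultures irradiation changed 49.4% of 16906 genes, 24% rising and 25.4% falling. The first number of the difference fell to 48 to 78 when any of these libraries was left out: HCT116 IR replicate 1, 2 or 3, HCT116 NIR replicate 1 or 2, mixed IR replicate 1, 2 or 3, or mixed NIR replicate 1. The second was 12 without mixed IR replicate 3, 16 without HCT116 IR replicate 1, and 60 and 46 without mixed NIR replicates 2 and 3. With DESeq2 the numbers were 201 and 126. The mixture holds RNA of both lines, so a difference may hold a change in the share of a line, a change within its cells or both. These parts were not tested. Interferon-stimulated genes had a more positive response in the mixture in 12 and a more negative one in 0 of 42 tested, with a median log2 difference of 0.56. IFI6 went from 14.1 ± 2.01 to 23.0 ± 1.19 CPM in HCT116 and from 8.62 ± 0.895 to 37.5 ± 1.10 CPM in the mixture (log2 difference 1.39 ± 0.147, adjusted p = 3.2e-06), and IFIT1 from 18.5 ± 0.388 to 40.5 ± 2.14 and from 15.4 ± 3.18 to 64.7 ± 1.63 CPM (log2 difference 0.91 ± 0.140, adjusted p = 6.3e-04). In MCF10A these genes went from 2.16 ± 0.719 to 6.40 ± 0.654 CPM and from 1.58 ± 0.674 to 6.14 ± 1.81 CPM. The irradiated mixture thus had higher means of IFI6 and IFIT1 than either irradiated line alone. The number of interferon-stimulated genes with a more positive response became 20 with no filter and 7 without mixed IR replicate 2, mixed NIR replicate 1 or HCT116 NIR replicate 1. Of the p53 targets none had a more positive and 3 had a more negative response in the mixture. ANKRD37 fell less there, from 6.14 ± 1.96 to 2.93 ± 1.02 CPM (log2 difference 1.85 ± 0.332, adjusted p = 0.0038), and ABCA12 rose less, from 3.86 ± 0.636 to 22.9 ± 1.11 CPM (log2 difference -0.81 ± 0.167, adjusted p = 0.014), a call lost without mixed NIR replicate 3 or with limma-voom (adjusted p from 0.051 to 0.11). FN1 was at 146 ± 4.52 and 357 ± 27.7 CPM in NIR and IR mixtures, and at 1325 ± 41.1 and 5769 ± 362 in MCF10A (log2 difference 2.09 ± 0.145, adjusted p = 1.2e-09).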

How the data were processed

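Poly(A) RNA of 18 cultures was sequenced with the Illumina Stranded mRNA Prep as paired-end reads, per the labels' protocols. The submitters' processing notes name fastp, STAR, featureCounts and the build GRCh38. The annotation, the use of strand and the treatment of shared reads are not given in the sources used here. The authors deposited raw counts per gene symbol, as whole numbers. From 65.5% to 70.4% of the counts from 1 to 10 in the HCT116 libraries were even, and a fit on halved counts is among the alternatives.

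Of 40916 symbols, 13485 had no count in the HCT116 libraries. CPM (counts of a gene times 1e+06 over the library total) were computed over all symbols, with 25737818 to 40839835 counts in HCT116. Genes were kept by filterByExpr, scaled by TMM and tested with edgeR 4.0.16 (R 4.3.3) by the quasi-likelihood test with Benjamini-Hochberg adjustment over all genes tested, at a threshold of 0.05. IR was set against NIR within HCT116 (6 libraries), and the differences between responses were tested as interaction terms over 12 libraries each. The SE is the log2 fold change over the square root of F. P-values cover the spread between these replicates. No pair of HCT116 replicates agreed within sampling noise (chi-squared per gene 7.11 to 14.0, or 3.56 to 7.00 with counts halved). The pipeline was tested on simulated data.

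The members and the 46 gene lists were chosen with earlier results of these data known. The text names, among called genes whose libraries did not overlap and whose higher mean reached 10 CPM, the 12 largest rises and 12 largest falls; the 5 most positive and 5 most negative calls of each interaction, by the same minimum in the highest group; and fixed members of each list with up to 4 called members of largest change. Some genes that the rule names are not reported here.

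Alternatives were DESeq2 1.42.0, limma-voom (limma 3.58.1), upper-quartile and library-size scaling, leaving mitochondrially encoded and the 10 most abundant genes out, no filter, a filter of 1 CPM in 3 libraries, a replicate block, halved counts and each library left out. Promoter sequences are RefSeq's (GRCh38.p14).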

Additional observations from a re-analysis of the deposited data

Results flagged for a closer look

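For 19 genes the test of the difference between 2 responses to irradiation (edgeR, Benjamini-Hochberg adjustment) passed the threshold with the largest values in each direction, so their size is a description. Levels are the mean ± SD of 3 NIR and of 3 IR libraries, in this order. Between HCT116 and MCF10A, the most positive and most negative log2 differences belonged to genes with 1 of the 2 cell lines near 0 in at least 1 group, for which a fitted value is no bound. CASP1, an inflammatory caspase, had 0 ± 0 and 0.395 ± 0.193 CPM in HCT116 and 34.5 ± 1.55 and 23.5 ± 2.81 CPM in MCF10A (log2 difference 7.09, adjusted p = 2.1e-06). EDA2R had 0 ± 0 and 0.724 ± 0.341 CPM in HCT116 and 15.4 ± 0.821 and 28.9 ± 0.876 CPM in MCF10A (6.52, adjusted p = 1.0e-05). CROT, a peroxisomal carnitine transferase, had 0 ± 0 and 0.542 ± 0.304 CPM in HCT116 and 29.3 ± 1.29 and 38.6 ± 2.69 CPM in MCF10A (6.47, adjusted p = 1.3e-05), which in HCT116 is at least 17.1-fold higher against a floor of 3 counts over the group, or at least 8.53-fold with all counts halved. KRT23, a simple keratin, had 4.35 ± 1.03 and 11.5 ± 0.268 CPM in HCT116 and 0.101 ± 0.0123 and 0 ± 0 CPM in MCF10A (6.23, adjusted p = 4.3e-04). TENM4, a teneurin, had 0.0207 ± 0.0359 and 1.38 ± 0.609 CPM in HCT116 and 13.3 ± 2.19 and 11.6 ± 0.836 CPM in MCF10A (5.92, adjusted p = 6.3e-08).

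The most negative differences were those of AMOT, with 31.5 ± 1.97 and 12.8 ± 0.725 CPM in HCT116 and 0 ± 0 and 0.176 ± 0.0897 CPM in MCF10A (-6.98, adjusted p = 1.2e-05), and VSTM2L, with 0.222 ± 0.158 and 0 ± 0 CPM in HCT116 and 14.5 ± 1.37 and 29.96 ± 2.65 CPM in MCF10A (-6.78, adjusted p = 2.3e-05). SLITRK6 had 0.203 ± 0.219 and 0 ± 0 CPM in HCT116 and 15.8 ± 2.17 and 24.8 ± 1.95 CPM in MCF10A (-6.38, adjusted p = 5.6e-04). MCF2L had 23.8 ± 2.09 and 13.9 ± 0.915 CPM in HCT116 and 0 ± 0 and 0.149 ± 0.228 CPM in MCF10A (-6.36, adjusted p = 0.0016), a call lost without MCF10A IR replicate 3 (adjusted p = 0.2).

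Between the mixture and HCT116 alone, ANKRD37 had 6.14 ± 1.96 and 2.93 ± 1.02 CPM in the mixture and 18.5 ± 2.11 and 2.42 ± 0.799 CPM in HCT116 (log2 difference 1.85, adjusted p = 0.0038). FN1, fibronectin, had 146 ± 4.52 and 357 ± 27.7 CPM in the mixture, 74.8 ± 19.6 and 42.3 ± 2.42 CPM in HCT116 and 1325 ± 41.1 and 5769 ± 362 CPM in MCF10A (2.09, adjusted p = 1.2e-09). ABCA12, a lipid transporter of the skin barrier, had 3.86 ± 0.636 and 22.9 ± 1.11 CPM in the mixture and 4.43 ± 0.174 and 44.9 ± 4.46 CPM in HCT116 (-0.81, adjusted p = 0.014), a call lost without mixed NIR replicate 3 or with limma-voom (adjusted p from 0.051 to 0.11). TNC, a matrix glycoprotein, had 3.07 ± 0.412 and 13.7 ± 2.65 CPM in the mixture, 0.131 ± 0.125 and 0.0163 ± 0.0283 CPM in HCT116 and 59.5 ± 6.25 and 79.9 ± 4.13 CPM in MCF10A (4.59, adjusted p = 0.024), a call lost without mixed NIR replicate 1, HCT116 IR replicate 1, HCT116 IR replicate 3, HCT116 NIR replicate 2 or HCT116 NIR replicate 3, with halved counts or with limma-voom (adjusted p from 0.051 to 0.26). IFI44L had 0.560 ± 0.259 and 10.4 ± 0.645 CPM in the mixture, 0.292 ± 0.0670 and 0.469 ± 0.104 CPM in HCT116 and 7.24 ± 0.613 and 18.7 ± 4.23 CPM in MCF10A (3.53, adjusted p = 2.0e-04). The adhesion gene AMIGO2 had 10.4 ± 1.63 and 13.2 ± 0.511 CPM in the mixture, 6.69 ± 1.09 and 2.73 ± 0.349 CPM in HCT116 and 118 ± 3.15 and 163 ± 8.40 CPM in MCF10A (1.60, adjusted p = 1.5e-04). The histone gene H2BC11 had 39.3 ± 3.87 and 30.9 ± 0.565 CPM in the mixture, 0.317 ± 0.291 and 1.45 ± 0.320 CPM in HCT116 and 252 ± 14.7 and 276 ± 20.8 CPM in MCF10A (-2.66, adjusted p = 1.4e-04). MCF10A carries an H2B-GFP reporter, whose part in the H2BC11 counts was not tested. ZBED2, a transcription factor gene, had 24.5 ± 1.29 and 75.1 ± 7.65 CPM in the mixture and 8.78 ± 2.39 and 52.0 ± 2.43 CPM in HCT116 (-0.98, adjusted p = 0.0023), and TAF3, a subunit of TFIID, had 21.7 ± 2.62 and 23.5 ± 0.505 CPM in the mixture and 17.3 ± 1.93 and 29.6 ± 1.53 CPM in HCT116 (-0.69, adjusted p = 0.011). TLR3, a receptor for double-stranded RNA, had 6.05 ± 0.997 and 23.7 ± 1.46 CPM in the mixture and 4.78 ± 0.156 and 29.3 ± 1.95 CPM in HCT116 (-0.66, adjusted p = 0.049), a call lost without mixed IR replicate 1, mixed IR replicate 2, mixed IR replicate 3, mixed NIR replicate 1, HCT116 IR replicate 1, HCT116 IR replicate 2, HCT116 IR replicate 3, HCT116 NIR replicate 1, HCT116 NIR replicate 2 or HCT116 NIR replicate 3, with upper-quartile normalization, with library size alone, with a replicate block, with halved counts or with limma-voom (adjusted p from 0.051 to 0.15).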

How the results depend on the processing

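In HCT116 the number of genes that rose ran from 4119 to 4382 and the number that fell from 4376 to 4671 over 9 alternatives in scaling, filter, tool and depth, and from 3836 to 4169 and 4158 to 4412 when each library was left out in turn. For the difference from MCF10A the same ranges were 2662 to 3575 and 3232 to 4111, and 2577 to 3394 and 2906 to 3877 without single libraries. For the difference between the mixture and HCT116, 123 and 27 genes became 201 and 126 with DESeq2 and 253 and 83 with no filter, and 48 to 137 and 12 to 60 without single libraries. The higher number moved by over 1.5 times without mixed IR replicates 1 to 3 (66, 67 and 52), mixed NIR replicate 1 (48), HCT116 IR replicates 1 to 3 (72, 58 and 63) and HCT116 NIR replicates 1 and 2 (57 and 78), and the lower without mixed IR replicate 3 (12), mixed NIR replicates 2 and 3 (60 and 46) and HCT116 IR replicate 1 (16). The alternative with no filter tests more genes, and the cause of the DESeq2 numbers was not tested.

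Same-numbered HCT116 libraries of NIR and IR did not deviate together (r from -0.0430 to 0.0279, against -0.0571 to 0.0435 for other pairs). Between HCT116 and mixed NIR libraries, r was 0.0566, 0.00513 and 0.109 for replicates 1, 2 and 3, against -0.092 to 0.042 for other pairs. Between HCT116 and mixed IR libraries, it was 0.0266, 0.0334 and -0.0168, against -0.043 to 0.018. Whether same-numbered libraries were handled together is not given in the labels, and the numbers are used here to name libraries. With a replicate block 4119 genes rose and 4466 fell in HCT116, 2662 and 3763 differed from MCF10A, and 103 and 22 differed in the mixture.

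Of 311 named genes tested in HCT116, 278 passed the threshold. Of these 261 passed it under every alternative run, 17 lost it under at least 1, and 0 changed direction. Recomputed under the same alternatives, a step added after seeing the data, the number of list members with a lower response in HCT116 than in MCF10A ran from 8 to 11 for ERK output, 10 to 13 for AP-1, 16 to 21 for secretory, 18 to 21 for hypoxia and 16 to 20 for lysosome genes and was 15 in each for glycolysis enzymes, and the number of p53 targets with a higher response ran from 26 to 28. A gene near 0 in a group, such as EDA2R, KRT5 or VIM, has a fold change that depth limits.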

Other observations

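One library stood apart from its group. On the second principal component of the HCT116 libraries, which held 10.8% of the variance against 64.0% for the first, NIR replicate 3 was at -36.1 and the other NIR replicates at 26.9 and 9.35. Its FTH1 level was 338 CPM against 162 and 187 in the other NIR replicates. RPL23A was at 264 CPM there and at 163 and 189.9 in the others, and MT1E at 103 against 50.2 and 69.8. Without this library 4169 genes rose and 4412 fell.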
